A study of Caenorhabditis elegans with 3 samples.

Results

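The *ule* genes of *Caenorhabditis elegans* are 5 genes, *ule-1* to *ule-5*, named for expression in the lumen of the uterus. They were taken by gene symbol, after each symbol of the array annotation had been brought up to date through its Entrez identifier. Of the 5 genes, 4 had a probe, with 1 probe each, among 14936 named genes measured on every array. No probe is listed for *ule-2* in the annotation used here. The genes were selected on the log2 ratios of these same 3 arrays, which earlier results had shown to be very low for some of them, so the ratios below are a description of the genes, and no test of them is read as a result.

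The study hybridised RNA of mid-L3 hermaphrodites, from 3 separate preps, against a wild-type RNA called a mixed reference. The labels do not say what was mixed into it, and they give no strain, mutation or treatment for the mid-L3 animals beyond the code TP01. There were 3 two-colour arrays, 1 for each prep, with the reference in the first channel and mid-L3 RNA in the second. The channels were swapped on none of them, so a bias of a probe between channels cannot be told apart from a difference in RNA. Separate preps are not stated to be separate cultures, so the spread between arrays may be partly technical, and the spread of the single reference is not part of it. Values are log2 ratios centred on the median of each array, and errors are SDs over the 3 arrays (n = 3).

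Which channel was divided by which is stated nowhere in the labels. The sample descriptions name mid-L3 before the reference, which makes mid-L3 over reference the likely direction, and under it a negative ratio means less RNA per unit of total signal in mid-L3 animals than in the reference. Signs are kept as deposited throughout. Over the 19512 probes with a value on every array, the arrays correlated at Pearson's r of 0.739 (preps 1 and 2), 0.810 (preps 1 and 3) and 0.760 (preps 2 and 3), so all 3 run the same way.

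In the hermaphrodite the uterus is built from the somatic gonad. Its precursor cells lie around the anchor cell during the L3 stage, the lumen opens in L4, and in the adult it holds fertilised eggs on their way to the vulva. Animals at mid-L3 have no functioning uterus, no oocytes and no mature sperm. Fewer cells of a type and less RNA per cell cannot be told apart in RNA of whole animals.

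All measured *ule* genes had negative ratios on all 3 arrays. *ule-3* (D1054.11, chromosome V) had centred log2 ratios of -4.60, -5.20 and -5.75 in preps 1, 2 and 3. Its mean of -5.19 ± 0.58 is a 36.4-fold difference and was the third lowest of the 14936 named genes. *ule-4* (C08F11.11, chromosome IV) had -5.09, -4.78 and -5.24. Its mean was -5.04 ± 0.24, a 32.8-fold difference, and ranked 5 from the bottom. It was the tightest of the 4 genes, with a range of 0.47 over the arrays.

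*ule-5* (Y62H9A.6, chromosome X) had log2 ratios of -4.44, -4.41 and -5.04 in preps 1, 2 and 3. Its mean of -4.63 ± 0.36, a 24.8-fold difference, ranked 6 from the bottom. *ule-1* (W03F11.1, chromosome I) had -4.06, -2.25 and -3.89. Prep 2 lay well above the other preps, and the mean of -3.40 ± 1.00, a 10.6-fold difference, ranked 51. In single arrays *ule-1* differed 16.7-fold, 4.77-fold and 14.8-fold from the array median.

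**Figure D1:**
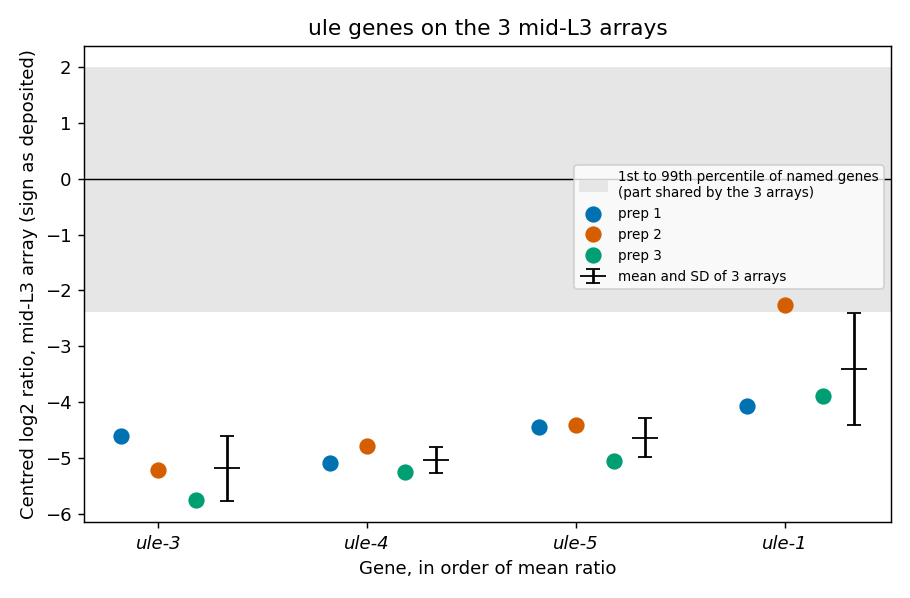
Centred log2 ratio (vertical axis, sign as deposited) of each measured *ule* gene on the arrays of preps 1, 2 and 3 (points), with the mean and SD in black and, in grey, the range from the 1st to the 99th percentile of named genes that the arrays share. *ule-3*, *ule-4* and *ule-5* lie at -4.41 or below on every array, and only the prep 2 value of *ule-1*, at -2.25, falls inside the grey range.

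The same values can be read on the linear scale as deposited, before centring. *ule-3* had deposited ratios of 0.042, 0.026 and 0.019, *ule-4* had 0.03, 0.035 and 0.027, and *ule-5* had 0.047, 0.045 and 0.031 in preps 1, 2 and 3. Ratios were deposited in steps of 0.001, and 1 step is 0.07 on the log2 scale at the lowest of these values. For *ule-5* the centred values of preps 1 and 2, at -4.44 and -4.41, lie closer together than 1 step. The deposited ratios behind them, 0.047 and 0.045, are more than 1 step apart, and centring brought them closer. No signal intensity was used here, so how far the dimmer channel stood above background for these spots is unknown.

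The order from the lowest mean was *ule-3*, *ule-4*, *ule-5* and *ule-1*. *ule-3* minus *ule-4* was 0.49, -0.43 and -0.51 on the 3 arrays, a mean of -0.15 ± 0.55, so these neighbours in the order did not differ beyond their spread. Without prep 3 *ule-4* was the lower of the pair. *ule-4* minus *ule-5* was negative on all 3 arrays, at -0.65, -0.36 and -0.20, with a mean of -0.40 ± 0.23. *ule-5* minus *ule-1* was also negative on all 3, at -0.38, -2.16 and -1.15, and its mean was -1.23 ± 0.89, with the widest gap in prep 2. These differences come from the ratios that led to the choice of the genes and are given without a test.

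The gap of *ule-1* in prep 2 was the largest departure of a *ule* gene from its own mean. Its ratio in prep 2 exceeded the mean of preps 1 and 3 by 1.72, against -0.03 to 0.39 for the other measured *ule* genes. Among the 100 named genes of lowest mean ratio the median of this gap was 0.40, and 3 genes, *ule-1* included, reached 1.72. The SD of *ule-1* was larger than that of 98.7% of named genes, and that of *ule-4* larger than 37.1%. The probes around *ule-1* in the probe order, a block of 625 that may be 1 sector of the slide, had a median of 0.31 in prep 2, -0.13 in prep 1 and 0.03 in prep 3. With each block centred on its own median, *ule-1* stood at -3.93, -2.57 and -3.92, so prep 2 was still the highest.

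Under the call rule used for the whole table (limma, Benjamini-Hochberg adjusted p under 0.05), 13.8% of the 19075 features had a negative and 13.5% a positive ratio. All 4 measured *ule* genes were among the negative ones. As these ratios led to the choice of the genes, nothing is read from that count. The median of the 4 means was -4.83, against 0.008 for all features tested.

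The next question was which other genes had ratios most like those of each *ule* gene, measured by the Euclidean distance between the centred log2 ratios of the 3 arrays. The nearest gene to *ule-3* was *D1054.10* at a distance of 0.34, followed by *ZK813.3* at 0.77 and *ule-4* at 0.82. *D1054.10* was also nearest to *ule-4*, at 0.53, before *ule-5* at 0.77 and *ule-3*. Nearest to *ule-5* were *F55B11.2* at 0.35, *stha-3* at 0.45 and *msp-33*, a gene for a major sperm protein, at 0.60. *ule-1* had other company, namely the cuticle collagen gene *col-158* at 0.38, the C-type lectin gene *clec-88* at 0.50 and the collagen gene *col-8* at 0.54.

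*col-158* had -3.91, -2.37 and -4.22 in preps 1, 2 and 3, *clec-88* had -3.80, -2.28 and -3.46, and *col-8* had -4.02, -2.42 and -3.38. All 3 share with *ule-1* a prep 2 value that lies above those of the other preps. The distance that chose them uses these same values, so this likeness is a description.

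**Figure D2:**
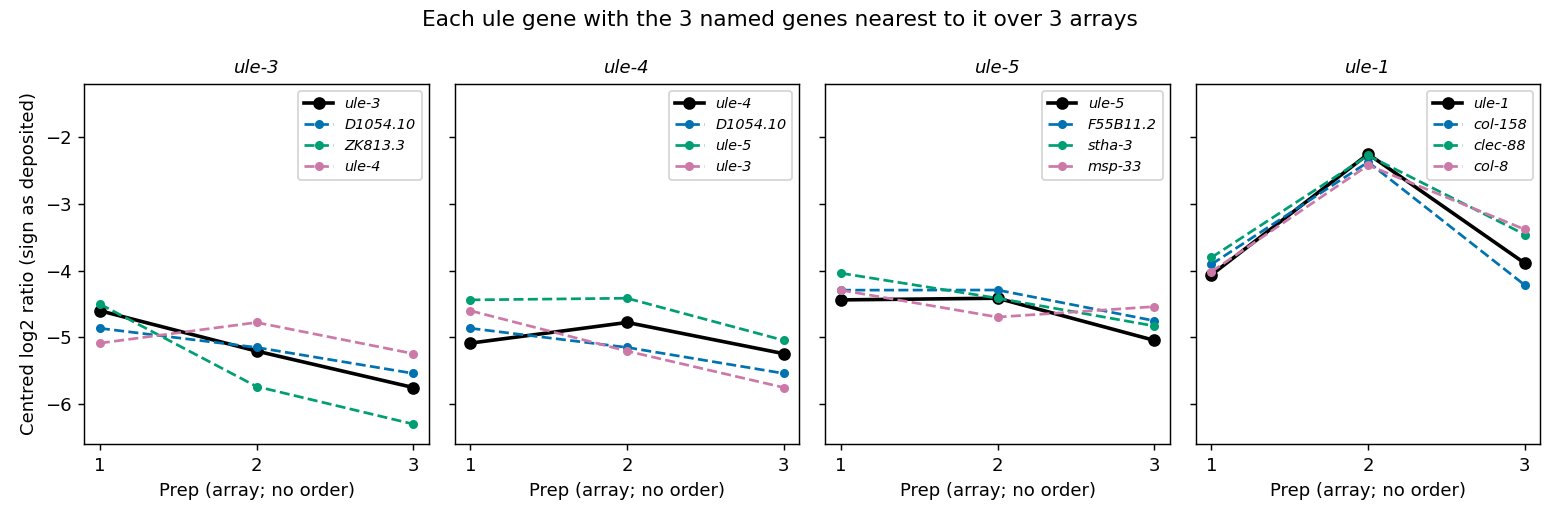
Centred log2 ratio (vertical axis, sign as deposited) in preps 1, 2 and 3 (horizontal axis; the lines join the values of 1 gene and imply no order) of each *ule* gene in black and of its 3 nearest named genes in colour. The prep 2 values of *ule-1*, *col-158*, *clec-88* and *col-8* lie between -2.42 and -2.25, above their values in preps 1 and 3.

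The *ule* genes lie on 4 chromosomes, *ule-1* on I, *ule-2* and *ule-4* on IV, *ule-3* on V and *ule-5* on X. Position was not part of the rule that chose them. The 5 protein-coding genes on either side of each were read from the gene order of the RefSeq table for assembly WBcel235, a window chosen after the values had been seen. Of the 33 measured neighbours of the 4 measured *ule* genes, 7 were negative past the threshold and 4 positive, against the 13.8% and 13.5% of all features given above. The median of the neighbours was 0.07. The lowest of the neighbours lay directly beside *ule-3* and *ule-5*.

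*ule-3* had a close match beside it. *D1054.10*, the gene directly before *ule-3* on the chromosome, had log2 ratios of -4.86, -5.15 and -5.54 in preps 1, 2 and 3. Its mean was -5.18 ± 0.34 (limma adjusted p = 7.99538e-08), a 36.4-fold difference, and the rank of 4 placed it right after *ule-3*. *ule-3* minus *D1054.10* was 0.26, -0.05 and -0.21, with a mean of -0.001 ± 0.24.

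The run of low ratios ended there. Before this pair, *D1054.9* had 1.92, 2.39 and 0.62, a mean of 1.64 ± 0.92 (limma adjusted p = 0.00100186), and *D1054.8* had a mean of 1.00 ± 0.13 (limma adjusted p = 0.00156949). Beyond *ule-3*, *D1054.19* had no value, and the chemoreceptor gene *srh-184*, the next measured gene, was at 0.20 ± 0.28 without passing. At the ends of the window *D1054.3* was negative at -0.99 ± 0.21, as was *prp-38*, a splicing factor gene, at -0.56 ± 0.22 (limma adjusted p = 0.00197923 and 0.0454421). *prp-38* no longer passed without any one of the preps (limma adjusted p = 0.102, 0.124 and 0.174 without preps 1, 2 and 3).

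*ule-5* stood at the end of a row of 4 genes with low ratios on chromosome X. *stha-3* (Y62H9A.5), directly before it, had -4.04, -4.41 and -4.83 in preps 1, 2 and 3, with a mean of -4.43 ± 0.40 and a 21.5-fold difference (limma adjusted p = 1.14952e-07). *Y62H9A.4* had -2.54, -2.19 and -3.49, with a mean of -2.74 ± 0.67 (limma adjusted p = 6.86309e-06). *Y62H9A.3* had -3.39, -3.29 and -4.44, with a mean of -3.71 ± 0.64 (limma adjusted p = 6.82372e-07). All 4 genes had their lowest value in prep 3, as *ule-3*, *D1054.10* and *ule-4* did. The 1st percentile of all named genes was also lowest in prep 3, at -2.90, against -2.70 in prep 1 and -2.37 in prep 2.

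Within this row *ule-5* had the lowest mean. *ule-5* minus *stha-3* was -0.40, 0 and -0.22, a mean of -0.21 ± 0.20. The value of 0 in prep 2 comes from identical deposited ratios. *ule-5* minus *Y62H9A.3* averaged -0.92 ± 0.28 and *ule-5* minus *Y62H9A.4* -1.89 ± 0.33, negative on every array. On both sides the row had sharp edges. *Y62H9A.2* before it was at 0.20 ± 0.11 and *Y62H9A.7* after it at 0.03 ± 0.31, and of the 7 other measured genes in the window 0 passed in limma and 0 had an unadjusted p under 0.05. In the whole window 3 of 10 measured neighbours were negative past the threshold, beside 13.8% of all features.

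The places of the probes were compared by block only, so probes that share a block may lie side by side. By the probe order, *ule-3*, *stha-3* and *Y62H9A.3* belong to block 25, and *ule-5*, *D1054.10* and *Y62H9A.4* to block 17. Each pair of chromosomal neighbours at -4 or below therefore comes from different blocks. Along most of both windows, however, the measured genes alternate between blocks 17 and 25. Different blocks for adjacent genes thus follow from the layout, and nothing is read from them. *Y62H9A.7* and *Y62H9A.8*, which follow *ule-5* and did not pass, also lie in blocks 25 and 17. Whether the printing of neighbouring genes affects their ratios was not tested. With every block centred on its own median, the means were -5.36 ± 0.46 for *ule-3* and -5.30 ± 0.40 for *D1054.10*, and -4.75 ± 0.35 for *ule-5* and -4.60 ± 0.27 for *stha-3*. Whether the spots of neighbouring genes share sequence was not tested, as no sequence was used here.

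**Figure D3:**
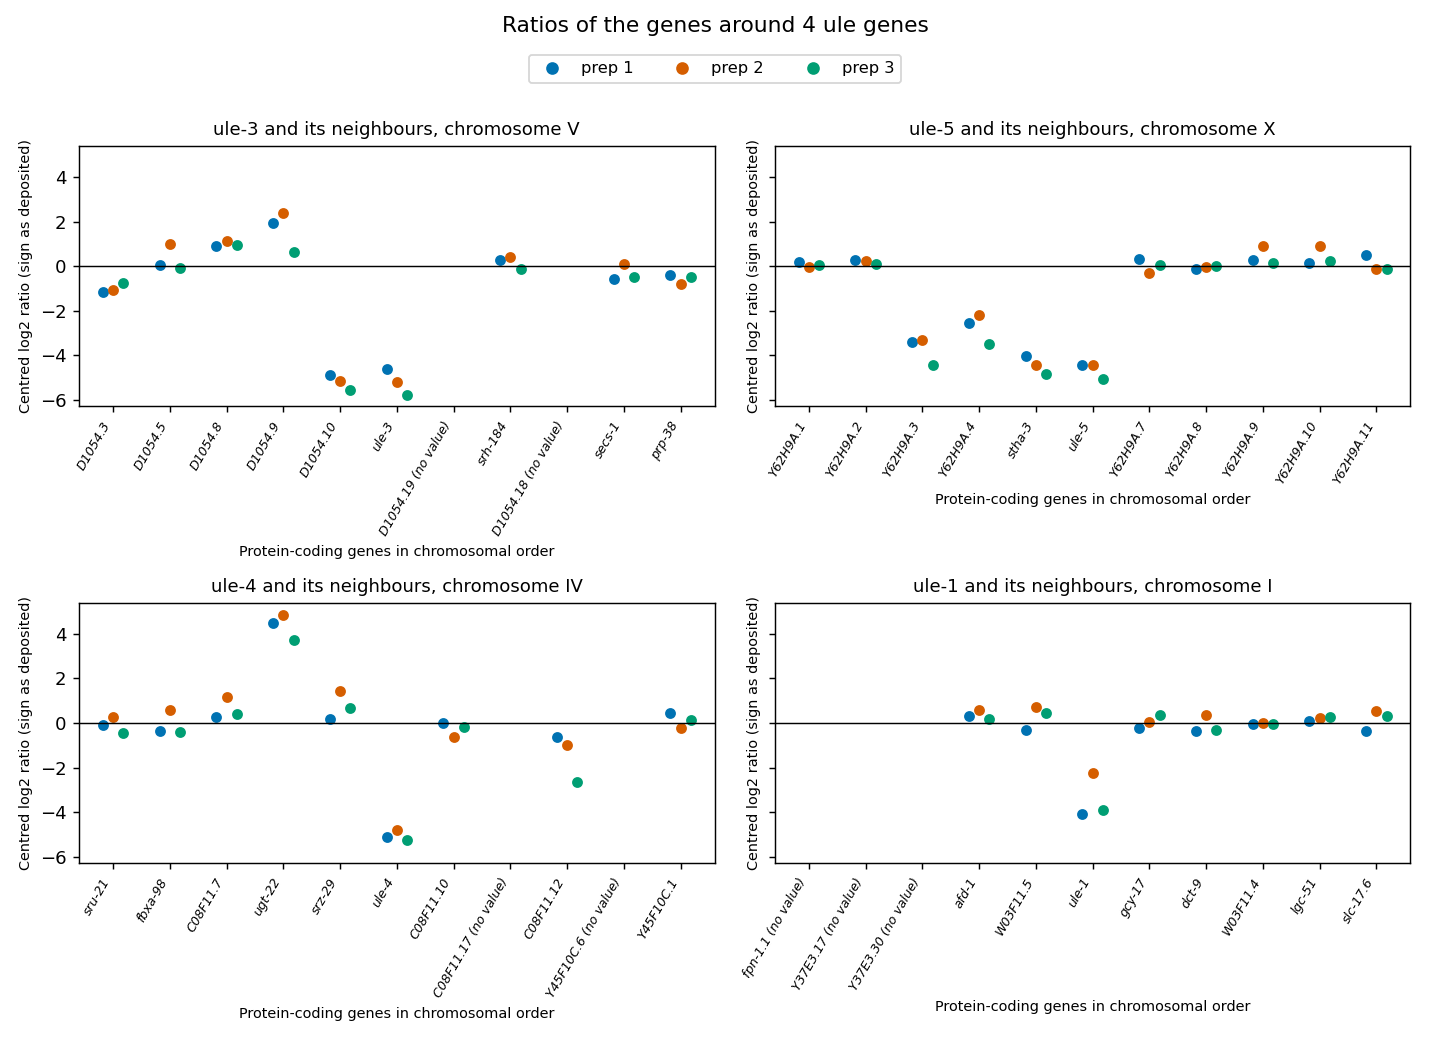
Centred log2 ratio (vertical axis, sign as deposited) in preps 1, 2 and 3 (points) of the protein-coding genes in chromosomal order around *ule-3*, *ule-5*, *ule-4* and *ule-1*, with 5 genes on either side. *ule-3* shares its low ratios with *D1054.10* and *ule-5* with 3 genes before it, while *ule-1* stands alone and *ule-4* lies near *ugt-22*, at 4.35.

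Across the table, 11599 pairs of adjacent protein-coding genes had a ratio for both genes. In 34 pairs at least 1 gene had a mean of -4 or lower. Both genes did so in 2 pairs, *D1054.10* with *ule-3* and *stha-3* with *ule-5*. At -3 or lower the numbers were 150 pairs and 4 pairs, the further ones being *perm-4* with *perm-2*, both eggshell genes, and *Y45F10C.2* with *Y45F10C.4*. Both limits were set after the values were seen, and the *ule* genes were chosen for low ratios, so these counts only describe where such pairs lie.

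*ule-4* and *ule-1* lacked such neighbours. *ule-4* lay between the chemoreceptor gene *srz-29*, which was positive at 0.76 ± 0.62 (limma adjusted p = 0.0297776, and 0.181 without prep 2, where the mean was 0.43), and *C08F11.10*, at -0.27 ± 0.33 without passing. The gene before *srz-29* is *ugt-22*, for a UDP-glucuronosyltransferase, an enzyme class that attaches sugars to small molecules. It had 4.48, 4.85 and 3.73 in preps 1, 2 and 3 and a 20.4-fold difference (limma adjusted p = 2.07976e-07), in the opposite direction to *ule-4* only 2 genes away. *C08F11.12* was the only neighbour in this window to be negative past the threshold, with -0.64, -0.99 and -2.65, a mean of -1.43 ± 1.07 (limma adjusted p = 0.00481552, and 0.0634 without prep 2).

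Around *ule-1* 0 of the 7 measured neighbours passed in limma, 0 had an unadjusted p under 0.05, and their means ran from -0.12 to 0.36. Among all features 13.8% were negative and 13.5% positive, and 7 genes are too few to set apart from those shares. *W03F11.5*, directly before it, was at 0.28 ± 0.53, and *gcy-17*, a receptor guanylate cyclase gene directly after it, at 0.06 ± 0.28. *ule-2* itself has no value, and the nearest measured genes on its sides were *irld-4* at -0.23 ± 0.29 and *Y57G11C.31* at 0.02 ± 0.16. Of the 4 measured genes in its window, *Y57G11B.5* passed, at -2.48 ± 0.46 (limma adjusted p = 5.50858e-06). This count is also too small to set apart from the share of all features.

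The last comparison set the *ule* genes beside lists of genes of the uterus, the egg and the adult, chosen with earlier results of these data known. Genes that build or mark the uterus, spermatheca and gonad sheath had both negative and positive ratios. Of 32 listed, 30 were measured, with 6 negative and 7 positive past the threshold and a median of 0.17, where 13.8% of all features were negative and 13.5% positive, with a median of 0.008. With a minimum change of 2-fold, 2 were negative and 2 positive, beside 445 negative and 316 positive of all 19075 features. Some of these genes also act in muscle or neurons, and nothing about the tissues is read from the counts. The lowest was *tdc-1*, a tyrosine decarboxylase gene used in uv1 cells of the uterus and in neurons, at -2.16, -2.62 and -2.69 in preps 1, 2 and 3. *inx-9*, a gap junction gene of the sheath, followed with a mean of -2.03 ± 0.15. *mup-2*, a troponin T gene of muscle and sheath, was the highest at 2.56 ± 0.68, and the channel gene *ocr-2* lay nearest to 0 at -0.04 ± 0.25. The mean of every gene in this list lay above those of all 4 measured *ule* genes.

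Genes listed for the eggshell and fertilisation, not all of which build the covering of the egg, came closer. Of 15 listed, 14 were measured, and 11 were negative and 0 positive past the threshold in limma (0 positive at an unadjusted p under 0.05), with a median of -2.62, beside 13.8% negative and 13.5% positive among all features. *cpg-3*, a chondroitin proteoglycan gene, had -5.04, -3.12 and -4.33 in preps 1, 2 and 3, with prep 2 the highest as for *ule-1*. *perm-2* and *perm-4*, which help to seal the eggshell, had means of -4.05 ± 0.34 and -3.73 ± 0.19. *egg-1*, for a receptor on the oocyte, was at -0.005 ± 0.16. None of the 14 had a mean as low as those of *ule-3*, *ule-4* or *ule-5*.

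Yolk is made in the adult intestine and taken up by oocytes. Of 7 yolk protein and receptor genes 4 were measured, and 2 were negative and 0 positive in limma (0 positive at an unadjusted p under 0.05), with a median of -1.36, beside the same 13.8% and 13.5% of all features. The yolk protein gene *vit-2* had -5.13, -4.998 and -6.41 in preps 1, 2 and 3, the only member of these lists below *ule-3*. The oocyte yolk receptor gene *rme-2* was at -2.86 ± 0.15. *vit-5* and *vit-6* did not pass, at 0.52 ± 0.68 and 0.14 ± 0.41. Of 17 major sperm protein genes, which mark sperm and are near-identical in sequence, 16 were negative, beside 13.8% of all features, with a median of -3.46. Their spots may pick up RNA of each other, so the 16 may not be separate measurements, which was not tested. The lowest, *msp-33*, had a mean of -4.51 ± 0.20, between *ule-5* and *ule-1*. *msp-59* and *msp-51* followed at -4.25 ± 0.17 and -4.18 ± 0.39, and *msp-38*, the gene nearest to 0, did not pass at 0.09 ± 0.43.

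Of 4 collagen genes listed for the adult cuticle 1 was negative, beside 13.8% of all features, a count too small to set apart from that share. It was *col-19*, with -2.29, -2.32 and -2.02 in preps 1, 2 and 3. *col-63*, *col-62* and *col-7* did not pass, at 0.24 ± 0.45, -0.18 ± 0.32 and 0.07 ± 0.29. The part of sperm, egg or adult RNA in the *ule* ratios was not tested. All of these lists and the *ule* genes were read on the same 3 arrays against the same reference.

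**Figure D4:**
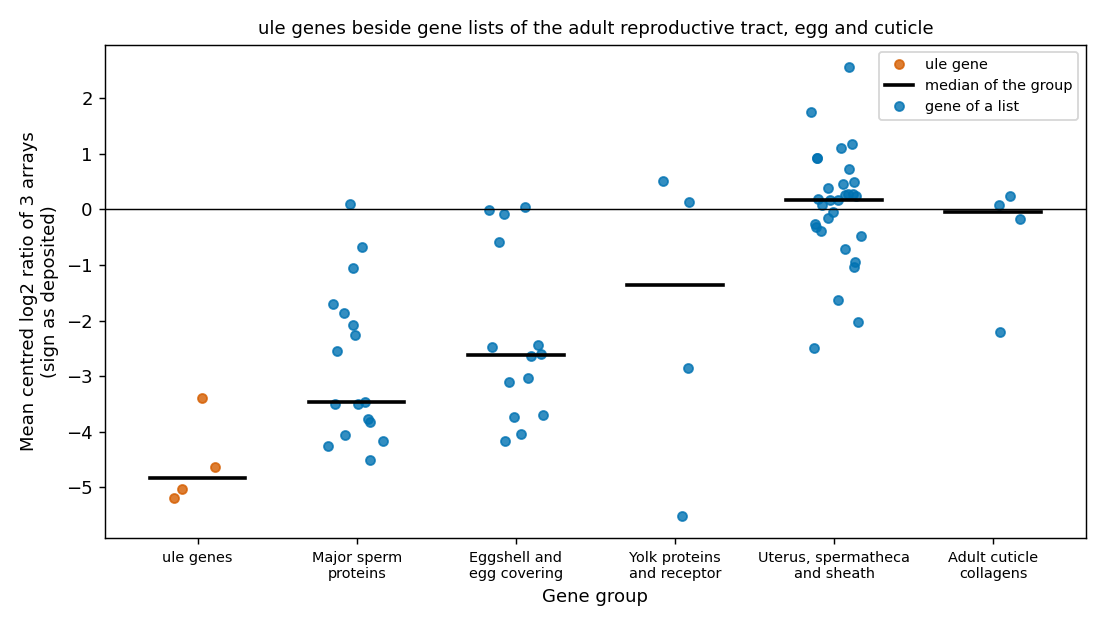
Mean centred log2 ratio of 3 arrays (vertical axis, sign as deposited) of each measured *ule* gene and of each gene in 5 lists, with the median of each group as a bar and sideways scatter for legibility only. The *ule* median of -4.83 lies below those of the sperm (-3.46), eggshell (-2.62), yolk (-1.36), uterus (0.17) and adult cuticle (-0.05) lists.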

How the data were processed

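The deposited table holds log2 ratios made by the authors, 1 per probe and array, for 20000 probes. How the authors corrected and normalized them, the dyes and the genome build are not stated in the labels. Base 2 was inferred, since 97.0% to 98.3% of values per array turned back into whole thousandths (tolerance 0.001 of a step) and at most 0.402% did so in base e. Deposited array medians were 0.027, -0.066 and 0.033, so centring by the authors is likely but unstated. Each array was centred here on its median over probes with 3 values. The platform's annotation, which is old, gave a single symbol for 15655 probes, several for 198 and none for 4147. For 15569 of these probes the Entrez identifier was found in the RefSeq table of WBcel235, which gave the current symbol, changed or not. Genes were ordered by their positions in that table, and distances between them were not used. Probes of a gene were averaged, and probes without a single symbol stayed unnamed features.

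Means were tested against 0 in limma 3.58.1 (R 4.3.3, intercept only, eBayes, two-sided), adjusted by Benjamini-Hochberg over 19075 features. In simulated ratios for this comparison on 19075 features, 100 of 100 features changed by 2 and 85 of 100 changed by 1 log2 unit were recovered, with 21 false calls among 206. The number of arrays limits the precision.

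The members, lists and rules were chosen with earlier results of these data known. Named genes were the members, the 3 nearest genes to each, the nearest measured gene on either side, and from each list the 3 genes farthest from 0 and the 1 nearest to it. Other genes of the windows were named after their values were seen. A protein similarity search in the rule was not run, as no protein sequences were used. Each array title carries its own date, so batch and prep cannot be told apart. Alternatives were other centrings and scaling, fewer arrays per probe, single probes, array weights, robust moderation, a 2-fold minimum and leaving out each prep. Plots were made in Python 3.11.15 (matplotlib 3.10.9).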

Additional observations from a re-analysis of the deposited data

How the results depend on the processing

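The *ule* genes were chosen on these ratios, so their signs and calls under the alternatives are no sign of stability. Over the alternatives *ule-1* ranged from -3.98 to -3.07, *ule-3* from -5.48 to -4.90, *ule-4* from -5.22 to -4.93 and *ule-5* from -4.78 to -4.43, and each stayed within 1 SD of its reported mean. The lowest value of *ule-1* was the one without prep 2. The neighbours, added after seeing the data, ranged from -5.34 to -5.01 (*D1054.10*), -4.62 to -4.23 (*stha-3*), -3.98 to -3.34 (*Y62H9A.3*) and -3.04 to -2.37 (*Y62H9A.4*). Of 12 called neighbours in all windows, *prp-38*, *srz-29* and *C08F11.12* lost the call under some alternatives other than the 2-fold minimum, and 6 lost it with that minimum. Counts over the whole table changed more. Against 2624 negative and 2583 positive features, centring on the density peak gave 1654 negative, and a minimum change of 2-fold gave 445 negative and 316 positive. That minimum left 2 negative and 2 positive genes in the uterus list, and array weights called 1 positive yolk gene. No paired analysis was possible because there is a single group. Without intensities, the signal over background behind the lowest ratios is unknown.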

Other observations

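Just beyond the window around *ule-4*, and named after their values were seen, 3 adjacent genes on chromosome IV had negative ratios. *Y45F10C.2*, which lies 6 protein-coding genes after *ule-4*, had log2 ratios of -3.95, -4.10 and -4.54 in preps 1, 2 and 3, and ranked 15 from the bottom of the named genes. *Y45F10C.4*, the next gene, had -3.004, -2.37 and -3.79, and *fbxa-215*, an F-box gene after it, had -2.13, -2.40 and -2.91. The limma adjusted p was 1.14952e-07, 3.6908e-06 and 4.21352e-06 for the 3 genes. *oac-48*, which follows, was at 0.55 ± 0.48 and did not pass.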
